A study of Mus musculus with 7 samples.

Results

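Semaphorins, ephrins, netrins and Slits are the classical guidance cues, and their genes and those of their receptors were followed here through sorted cells of the fetal mouse mammary gland. The set was chosen by name, as the 52 listed genes of these families among 38579 gene entries of the deposited table, and it holds 29 ligand and 23 receptor genes. Where a symbol had more than 1 entry, as Efna5 did, the entry with the higher mean was taken.

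RNA was sequenced from freshly sorted primary mammary cells of CD1 mice at E17.5, late in gestation, in 7 libraries of 4 groups. A first sort separated CD24+CD49f+ cells from CD24low cells, both lineage-negative, with 2 libraries each. A second sort took cells positive for a Sox10-Venus fluorescent reporter and EpCAM (2 libraries) and EpCAM-negative cells (1 library, so without an SD). The labels call the CD24+CD49f+ and the Sox10+EpCAM+ fractions fetal mammary stem cells (fMaSC here, for the epithelial fractions enriched for them) and the other fractions stroma. All columns are named lineage-negative and the EpCAM-negative column also Sox10-negative, whereas for replicate 1 of Sox10+EpCAM+ fMaSC the label leaves lineage out. The labels speak of biological replicates without saying which animals gave which library, so p-values measure only the spread between these libraries. The sorting strategy and any batch that went with it cannot be told apart.

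Guidance cues were named for steering growing axons. Semaphorins signal through plexins, and the secreted class 3 members bind neuropilins as co-receptors. Ephrins are held on the cell surface and bind Eph receptor tyrosine kinases on neighbouring cells, with signals running into both cells. Netrins act on neogenin and UNC5 receptors and Slits on Robo receptors. In the mammary gland, netrin 1 with neogenin and Slits with Robo1 are known for their part in the adhesion and organisation of the layers of growing ducts.

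Values are FPKM (fragments scaled by transcript length and library size), so levels of different genes can be set side by side per length. The libraries held an estimated 25.7 M to 38.9 M fragments, 12790 to 13639 genes reached 1 FPKM, and mitochondrial genes took 6.23% to 19% of the summed FPKM. Sorting markers followed the labels, with Epcam at 88.5 to 230 FPKM in the fMaSC libraries and 0.428 to 1.19 in the stroma libraries. The 10 epithelial markers summed to 439 to 1088 FPKM in fMaSC and 3.32 to 8.49 in stroma. The 10 fibroblast markers, Col1a1 and Pdgfra among them, summed to 7032 to 8096 FPKM in stroma. The epithelial fractions differed widely in these stromal markers, with 2363 and 3690 FPKM in CD24+CD49f+ fMaSC against 50.2 and 81.2 in Sox10+EpCAM+ fMaSC. Adipocyte (231 to 558 against 13.2 to 18.3), pericyte (31.1 to 40.4 against 6.65 to 9.28) and endothelial marker sums (38.9 to 47.4 against 9.44 to 9.77) differed the same way. Erythroid markers summed to 6870 and 731 FPKM in CD24+CD49f+ fMaSC, where replicate 1 stood apart, and to 85.3 to 218 in the other libraries. Mast cell markers summed to 271 and 169 FPKM in CD24low stroma and to 3.46 to 25.9 elsewhere. In bulk RNA, fewer cells of a type and less RNA per cell cannot be told apart.

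Guidance genes were widely present. In CD24+CD49f+ fMaSC 46 of the 52 reached 1 FPKM in every library, in Sox10+EpCAM+ fMaSC 35, 42 in CD24low stroma, and 43 in the EpCAM-negative library. Those with 20 FPKM or more in the mean of at least 1 group were 7, namely Sema3b, Sema3c, Sema4c, Sema6a, Plxnb2, Nrp1 and Efna1. Of the 52 genes 46 passed the filter for testing (1 FPKM in at least 2 libraries). The 6 left out are Sema3e, Sema4f, Plxna4, Plxnc1, Efna3 and Ntn4, none of them above 1.21 FPKM in any library. Among those tested, Plxnb3 passed the filter through CD24+CD49f+ fMaSC only.

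**Figure D1:**
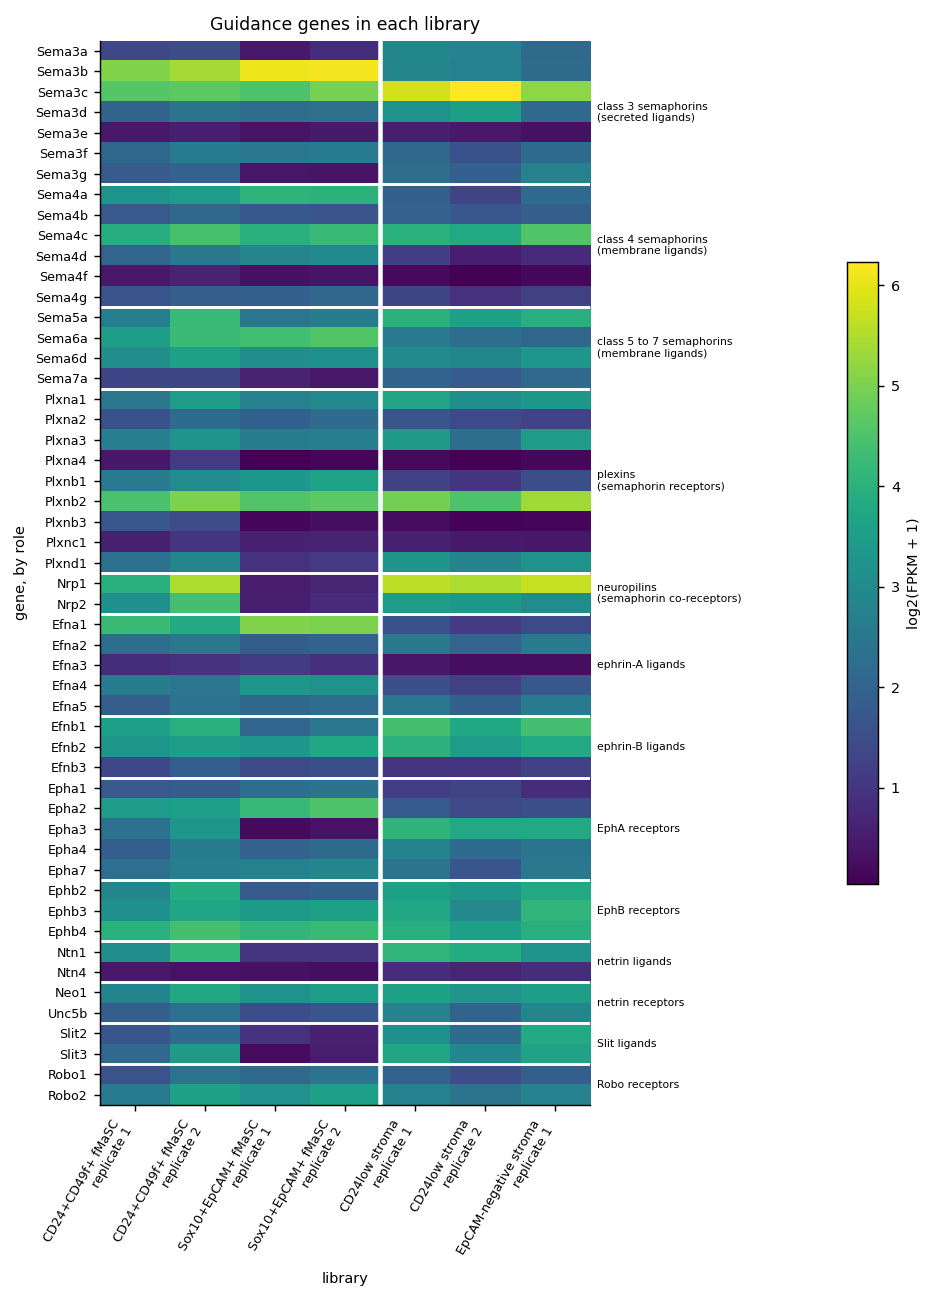
Level of each of the 52 guidance genes (rows, grouped by role between white lines) in each of the 7 libraries (columns, fMaSC to the left of the thick white line and stroma to the right), as log2(FPKM + 1). Sema3b, Efna1 and Epha2 are bright in fMaSC, and Nrp1, Epha3 and Slit3 are dark in both Sox10+EpCAM+ columns only.

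The stretches before 5 of these genes are shown first, since they come from the groups described next. Epha2 and Efna4, a receptor and a ligand gene, were higher in fMaSC of both sorts, Sema3a was lower in both, Nrp1 was the member with the largest difference in Sox10+EpCAM+ fMaSC, and Plxnb3 was seen in CD24+CD49f+ fMaSC. Each runs 5′ to 3′ over the 250 bases before the RefSeq start (GRCm38.p6), and capitals mark the Sox motifs ACAAAG and ACAATG on either strand, on the lower strand read as CTTTGT and CATTGT.
Epha2, chr4:141300971-141301220, plus strand: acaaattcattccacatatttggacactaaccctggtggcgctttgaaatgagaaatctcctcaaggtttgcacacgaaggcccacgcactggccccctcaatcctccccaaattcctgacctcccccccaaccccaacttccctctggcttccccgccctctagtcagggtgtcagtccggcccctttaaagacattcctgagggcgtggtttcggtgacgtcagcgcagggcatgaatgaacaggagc
Efna4, chr3:89338029-89338278, minus strand: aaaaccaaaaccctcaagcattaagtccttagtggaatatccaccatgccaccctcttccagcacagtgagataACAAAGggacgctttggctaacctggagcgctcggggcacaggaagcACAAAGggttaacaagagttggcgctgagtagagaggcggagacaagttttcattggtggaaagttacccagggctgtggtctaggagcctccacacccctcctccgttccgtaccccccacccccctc
Sema3a, chr5:13396534-13396783, plus strand: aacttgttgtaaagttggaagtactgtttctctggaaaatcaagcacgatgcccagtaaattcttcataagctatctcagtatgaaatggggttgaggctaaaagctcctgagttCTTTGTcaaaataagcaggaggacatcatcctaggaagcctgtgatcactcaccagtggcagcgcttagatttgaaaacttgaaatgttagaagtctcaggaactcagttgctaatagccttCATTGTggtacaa
Plxnb3, chrX:73756853-73757102, plus strand: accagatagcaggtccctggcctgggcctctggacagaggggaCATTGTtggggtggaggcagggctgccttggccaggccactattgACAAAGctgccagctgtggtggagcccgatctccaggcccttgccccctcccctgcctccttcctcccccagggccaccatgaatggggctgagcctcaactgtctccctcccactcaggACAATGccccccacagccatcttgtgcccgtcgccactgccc
Nrp1, chr8:128358823-128359072, plus strand: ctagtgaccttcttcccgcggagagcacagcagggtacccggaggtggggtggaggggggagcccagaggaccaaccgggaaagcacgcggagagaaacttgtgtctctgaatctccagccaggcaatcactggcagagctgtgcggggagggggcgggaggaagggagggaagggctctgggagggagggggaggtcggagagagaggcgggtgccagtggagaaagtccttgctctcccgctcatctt

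Plxnb3 holds 3 Sox motifs in this window, Efna4 and Sema3a 2 each, and Epha2 and Nrp1 none. The shown genes do not stand for their groups in this. Efna4 was the only 1 of 6 matched genes higher in fMaSC of both sorts with a Sox motif (16.7%). Sema3a was the only 1 of 12 matched genes lower in fMaSC of the second sort (8.33%). Among the 45 members matched to a RefSeq promoter 17.8% held at least 1, against 25.2% of all 32851 promoters of this length. The motif CACCTG, an E-box searched on both strands, was in 17.8% of the members and 17.2% of all promoters. CG pairs were more frequent before the members, with a median of 16 in 250 bases against 6 over all promoters, taken regardless of expression. The median was 8 in the 6 matched genes higher in fMaSC of both sorts. It was 16.5 in the 12 matched genes lower in fMaSC of the second sort. These genes and motifs were picked after the values were seen, and a match describes letters, not a binding site.

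The first question was which guidance genes separate the epithelial from the stromal fraction of either sort. Of the 46 tested genes, 8 were higher in fMaSC of both sorts: the semaphorin genes Sema3b, Sema4a, Sema4d and Sema6a, the plexin gene Plxnb1, the ephrin genes Efna1 and Efna4 and the Eph receptor gene Epha2. That is 17.4% of the members tested, where 6.78% of all 14418 genes tested were higher in both sorts. Sema3a alone was lower in both (2.17% of the members, 2.71% of all genes). When every library was scaled to the same sum (TPM), Efna1 and Sema3b passed in both sorts and Epha2 in the second only, while Efna4, Plxnb1, Sema4a, Sema4d and Sema6a passed in neither. Fold changes below are on the log2(FPKM + 1) scale, which understates the change of low genes, and a gene passed at a limma adjusted p (Benjamini-Hochberg over all genes tested) under 0.05.

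Ephrin-A1 and its receptor EphA2 lay on the epithelial side together. Efna1 (ENSMUSG00000027954, chromosome 3, 89271733 to 89281142) encodes a ligand tethered to the membrane by a lipid anchor. It measured 18.1 and 13.1 FPKM in CD24+CD49f+ fMaSC, 32.2 and 31.5 in Sox10+EpCAM+ fMaSC, 2.05 and 1.2 in CD24low stroma and 1.72 in the EpCAM-negative library. Every fMaSC library stood above every stroma library, and the log2 fold change was 2.66 (SE 0.24, limma adjusted p = 0.00197) in the first sort and 3.59 (SE 0.29, limma adjusted p = 0.00068) in the second. Epha2 (ENSMUSG00000006445, chromosome 4, 141301240 to 141329384), a receptor tyrosine kinase of many epithelia, measured 10.1 and 10.7, then 17.3 and 21.6, then 2.5 and 1.65, and 1.87 FPKM in the same order of libraries. Its log2 fold changes were 1.91 (SE 0.21, limma adjusted p = 0.00408) and 2.82 (SE 0.25, limma adjusted p = 0.000985), again without overlap between fMaSC and stroma.

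Efna4 encodes another ligand of the ephrin-A class and lies near Efna1 on chromosome 3. It stood at 5.32 and 4.59 FPKM in CD24+CD49f+ fMaSC, 8.93 and 8.38 in Sox10+EpCAM+ fMaSC, 1.92 and 1.32 in CD24low stroma and 2.29 in the EpCAM-negative library, with log2 fold changes of 1.19 (limma adjusted p = 0.0132) and 1.55 (limma adjusted p = 0.00488). Efna3, which lies between them, was too low to be tested but followed the same order, with 0.807 to 1.21 FPKM in fMaSC and 0.2 to 0.348 in stroma. The other ephrin-A genes, Efna2 and Efna5, passed in neither sort and ranged from 2.64 to 5.1 FPKM. Among the EphA receptor genes, Epha1 passed in the second sort only (3.83 and 4.21 against 0.793 FPKM, log2 fold change 1.48, limma adjusted p = 0.00318), and Epha4 and Epha7 in neither.

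Sema4d and its receptor Plxnb1 were the other pair with both partners on the epithelial side. Sema4d, a membrane-bound class 4 semaphorin, measured 3.21 and 4.75 FPKM in CD24+CD49f+ fMaSC, 6.33 and 6.87 in Sox10+EpCAM+ fMaSC, 1.23 and 0.48 in CD24low stroma and 0.711 in the EpCAM-negative library. Its log2 fold changes were 1.44 (SE 0.26, limma adjusted p = 0.0219) and 2.15 (SE 0.32, limma adjusted p = 0.00518). Plxnb1, which encodes the plexin that binds Sema4d, measured 5.16 and 7.15, 9.12 and 11.4, 1.42 and 1.04, and 1.89 FPKM in the same order. Its log2 fold changes were 1.67 (limma adjusted p = 0.00713) and 1.95 (limma adjusted p = 0.00384), and neither gene showed overlap between fMaSC and stroma libraries. Plxnb2, the most abundant plexin gene, passed in neither sort, with 21.1 to 31.6 FPKM in fMaSC and 21.6 to 40.1 in stroma.

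Sema3b (ENSMUSG00000057969, chromosome 9, 107597674 to 107609229) had the highest mean of all guidance genes in both fMaSC groups. This secreted semaphorin stood at 32.3 and 41.1 FPKM in CD24+CD49f+ fMaSC, 66.6 and 69.1 in Sox10+EpCAM+ fMaSC, 6.28 and 5.82 in CD24low stroma and 3.72 in the EpCAM-negative library. The log2 fold change was 2.41 (SE 0.18, limma adjusted p = 0.00122) and 3.87 (SE 0.22, limma adjusted p = 0.000318). It was also the 1 member higher in Sox10+EpCAM+ than in CD24+CD49f+ fMaSC (0.88, limma adjusted p = 0.0376), a call that was lost without either Sox10+EpCAM+ library (limma adjusted p = 0.26 and 0.274).

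Sema4a, a membrane semaphorin best known from the immune system, measured 8.45 and 9.95 FPKM in CD24+CD49f+ fMaSC, 15.8 and 15.2 in Sox10+EpCAM+ fMaSC, 2.83 and 1.48 in CD24low stroma and 3.63 in the EpCAM-negative library. Its log2 fold changes were 1.72 (limma adjusted p = 0.00922) and 1.83 (limma adjusted p = 0.00695). Sema6a, a transmembrane ligand of class A plexins, measured 10.2 and 18.3, 19.6 and 22.4, 5.08 and 3.84, and 3.25 FPKM in the same order. It had log2 fold changes of 1.44 (limma adjusted p = 0.031) and 2.37 (limma adjusted p = 0.00548), and in neither gene did fMaSC and stroma libraries overlap. Of the class A plexin genes, Plxna1, Plxna2 and Plxna3 passed in neither sort and ranged from 1.46 to 11.7 FPKM. Plxna4 was too low to be tested.

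**Figure D2:**
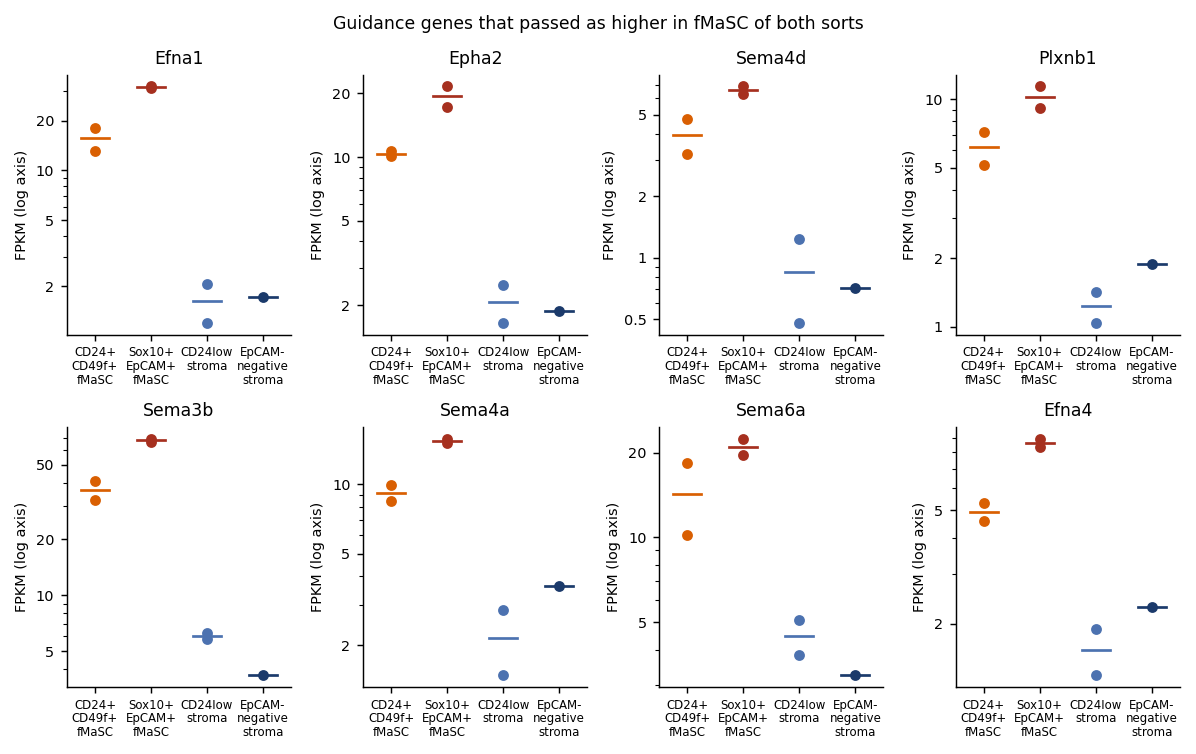
FPKM (log axis) of the 8 genes higher in fMaSC of both sorts, 1 point per library and a bar at the group mean, in the 4 groups. Orange and red points (fMaSC) lie above all blue points (stroma) in each panel, and in every panel both Sox10+EpCAM+ libraries lie above both CD24+CD49f+ libraries.

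A second group of genes was low in Sox10+EpCAM+ fMaSC and near the stroma level, or between, in CD24+CD49f+ fMaSC. Against EpCAM-negative stroma 13 genes were lower in Sox10+EpCAM+ fMaSC: Nrp1, Nrp2, Plxnd1, Sema3a, Sema3g, Sema7a, Slit2, Slit3, Ntn1, Unc5b, Epha3, Efnb1 and Ephb2. They are 28.3% of the members tested, beside 13.6% of all genes, and 9 members (19.6%, beside 12.5%) were higher. Against CD24low stroma 3 genes were lower in CD24+CD49f+ fMaSC, the class 3 semaphorin genes Sema3a, Sema3c and Sema3d (6.52%, beside 2.94% of all genes). There 9 members (19.6%, beside 7.78%) were higher. This count includes Plxnb3, which passed the filter only through CD24+CD49f+ fMaSC. The others are the 8 genes higher in both sorts (17.4% of the members tested). The median log2 fold change of the members was -0.32 in the second sort, where that of all genes was 0.09, and 0.10 in the first sort, where that of all genes was 0.13.

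Nrp1 (ENSMUSG00000025810, chromosome 8, 128359073 to 128505462), the co-receptor for class 3 semaphorins and for VEGF, differed most. It measured 14.8 and 43.8 FPKM in CD24+CD49f+ fMaSC, 0.436 and 0.606 in Sox10+EpCAM+ fMaSC, 47.8 and 43.6 in CD24low stroma and 50.6 in the EpCAM-negative library. The Sox10+EpCAM+ libraries stood alone at the bottom, while 1 of the CD24+CD49f+ libraries lay within the range of the CD24low libraries. The log2 fold change was -5.09 (SE 0.57, limma adjusted p = 0.00193) in the second sort and -0.81 (SE 0.46, limma adjusted p = 0.34) in the first. Between the fMaSC fractions it was -4.13 (SE 0.46, limma adjusted p = 0.00514). The difference between both sorts' folds, -4.28, did not pass (limma adjusted p = 0.0598).

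Nrp2, the other neuropilin gene, stood at 7.95 and 20.1 FPKM in CD24+CD49f+ fMaSC, 0.486 and 0.706 in Sox10+EpCAM+ fMaSC, 9.99 and 9.14 in CD24low stroma and 7.17 in the EpCAM-negative library. It was lower in Sox10+EpCAM+ fMaSC than in EpCAM-negative stroma by a log2 fold change of -2.36 (limma adjusted p = 0.016) and than in CD24+CD49f+ fMaSC by -3.11 (limma adjusted p = 0.00754). Plxnd1, a plexin gene known from blood vessels, measured 4.16 and 6.39, 0.921 and 1.09, 8.56 and 5.99, and 8.42 FPKM in the same order. Both Sox10+EpCAM+ values lay below all others. The log2 fold change was -2.23 against EpCAM-negative stroma (limma adjusted p = 0.00388) and -1.63 against CD24+CD49f+ fMaSC (limma adjusted p = 0.0142). In the first sort Plxnd1 did not pass (-0.40).

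The Slit genes, which encode large secreted repellents, were both lower in the second sort. Slit3 measured 3.45 and 9.68 FPKM in CD24+CD49f+ fMaSC, 0.171 and 0.443 in Sox10+EpCAM+ fMaSC, 12.1 and 6.68 in CD24low stroma and 11.2 in the EpCAM-negative library (second sort -3.23, SE 0.56, limma adjusted p = 0.0091). Slit2 measured 2.23 and 3.6, 0.929 and 0.519, 7.96 and 3.67, and 13.1 FPKM (second sort -3.04, SE 0.43, limma adjusted p = 0.00454), and here all stroma libraries lay above all fMaSC libraries, the closest pair at 3.67 and 3.6. Between the fMaSC fractions Slit3 was lower in Sox10+EpCAM+ fMaSC (-2.41, limma adjusted p = 0.0295) and Slit2 did not pass (-1.17, limma adjusted p = 0.103). The receptor genes did not pass in either sort. Robo1 ranged from 2.07 to 4.4 FPKM in fMaSC and from 1.84 to 3.02 in stroma, and Robo2 from 4.91 to 11 and from 4.36 to 5.94.

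The netrin ligand gene Ntn1 and the receptor gene Unc5b were lower in the second sort, and the receptor gene Neo1 did not pass. Ntn1, the secreted netrin 1, stood at 7.65 and 16.7 FPKM in CD24+CD49f+ fMaSC, 0.982 and 1.01 in Sox10+EpCAM+ fMaSC, 16.1 and 13.8 in CD24low stroma and 8.35 in the EpCAM-negative library. Its log2 fold change was -2.23 (SE 0.41, limma adjusted p = 0.0116) in the second sort and -2.63 (SE 0.34, limma adjusted p = 0.00803) between the fMaSC fractions. Neo1, which encodes the netrin receptor neogenin, had 6.11 to 12.3 FPKM in fMaSC and 8.62 to 11.1 in stroma. Unc5b, another netrin receptor gene, measured 2.8 and 3.97, 1.85 and 2.18, 5.97 and 3.06, and 6.45 FPKM, and was lower in the second sort (-1.31, limma adjusted p = 0.0443). Ntn4 was too low to be tested (0.208 to 0.807 FPKM).

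On the ephrin and Eph side, Epha3, Efnb1 and Ephb2 were lower in Sox10+EpCAM+ fMaSC. Epha3, a receptor found on many mesenchymal cells, measured 4.14 and 9.05 FPKM in CD24+CD49f+ fMaSC, 0.152 and 0.261 in Sox10+EpCAM+ fMaSC, 15.9 and 12.8 in CD24low stroma and 12.9 in the EpCAM-negative library (second sort -3.52, SE 0.40, limma adjusted p = 0.00215). Efnb1, a transmembrane ephrin, measured 10.6 and 14.4, 3.2 and 4.63, 20.3 and 12.6, and 19.9 FPKM (-2.10, limma adjusted p = 0.00838). Its receptor gene Ephb2 measured 6.43 and 13.6, 2.56 and 2.87, 10.8 and 8.94, and 13 FPKM (-1.92, limma adjusted p = 0.0178). In both genes the Sox10+EpCAM+ libraries were the lowest. Efnb2, Efnb3, Ephb3 and Ephb4 passed in neither sort, and Efnb2 and Ephb4, a known ligand and receptor pair of veins and arteries, ranged from 8.79 to 15.3 and from 10.6 to 20.4 FPKM over all libraries.

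The secreted class 3 semaphorins did not move as a class. Sema3c, a ligand of neuropilins, was the most abundant guidance gene of CD24low stroma, with 55.1 and 74.4 FPKM there, 35.1 in EpCAM-negative stroma, 23.4 and 24.4 in CD24+CD49f+ fMaSC and 21.9 and 30.1 in Sox10+EpCAM+ fMaSC. It was lower in the first sort (-1.39, limma adjusted p = 0.0192) and did not pass in the second (-0.44, limma adjusted p = 0.3). Sema3a, the founding repellent of the class, measured 1.62 and 1.76, 0.392 and 0.805, 6.34 and 5.86, and 3.58 FPKM (-1.40 and -1.53, limma adjusted p = 0.00743 and 0.00508). Sema3d measured 3.13 and 4.35, 3.79 and 4.06, 8.23 and 10.4, and 3.45 FPKM, and was lower in the first sort only (-1.13, limma adjusted p = 0.0219, against 0.14). Sema3f passed in neither sort (2.03 to 5.12 FPKM). All 3 lower calls of the first sort were lost without CD24low stroma replicate 1 and without replicate 2, with limma adjusted p of 0.0619 and 0.0596 for Sema3a, 0.0558 and 0.119 for Sema3c.

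Sema3g, a semaphorin gene known from endothelium, was the 1 member whose fMaSC-stroma fold differed between the sorts. It measured 2.51 and 2.96 FPKM in CD24+CD49f+ fMaSC, 0.328 and 0.286 in Sox10+EpCAM+ fMaSC, 3.76 and 2.82 in CD24low stroma and 5.8 in the EpCAM-negative library. The fold was -0.19 in the first sort and -2.38 in the second, a difference of -2.19 (SE 0.28, limma adjusted p = 0.0313). It is 1 of 46 members, or 2.17%, beside 1.44% of all genes with a lower fold in the second sort. No member had a higher fold by this test, beside 0.0763% of all genes. The call was lost without either Sox10+EpCAM+ library and without either CD24low stroma library. It was also lost with no filter on low values, under TPM and under quantile scaling (limma adjusted p = 0.0702, 0.168 and 0.051). The endothelial markers summed to 38.9 to 47.4, 9.44 to 9.77, 35.8 to 39.7 and 23.5 FPKM over these groups. Like Sema3g they were lowest in Sox10+EpCAM+ fMaSC. In the EpCAM-negative library, where Sema3g was highest, their sum was below that of CD24low stroma. By the same test none of the 9 tested endothelial markers passed. Lower folds were called in the fibroblast (9 of 10), adipocyte (3 of 6) and glial and neural crest markers (1 of 10). The part of these cell types in the result was not tested.

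Sema7a, a semaphorin anchored by lipid to the membrane, was lower in the second sort too (0.576 and 0.39 against 3.49 FPKM, -1.60, limma adjusted p = 0.00268), with 1.52 and 1.53 FPKM in CD24+CD49f+ fMaSC and 3.06 and 2.61 in CD24low stroma. Sema4b, Sema4c, Sema5a and Sema6d passed in neither sort. Sema4c, a ligand of Plxnb2, was abundant everywhere, with 14 and 20.7, 14.8 and 17.7, 15.1 and 12.9, and 22.7 FPKM. Plxnb2 itself measured 21.1 and 31.6, 22.6 and 24.6, 29.7 and 21.6, and 40.1 FPKM.

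**Figure D3:**
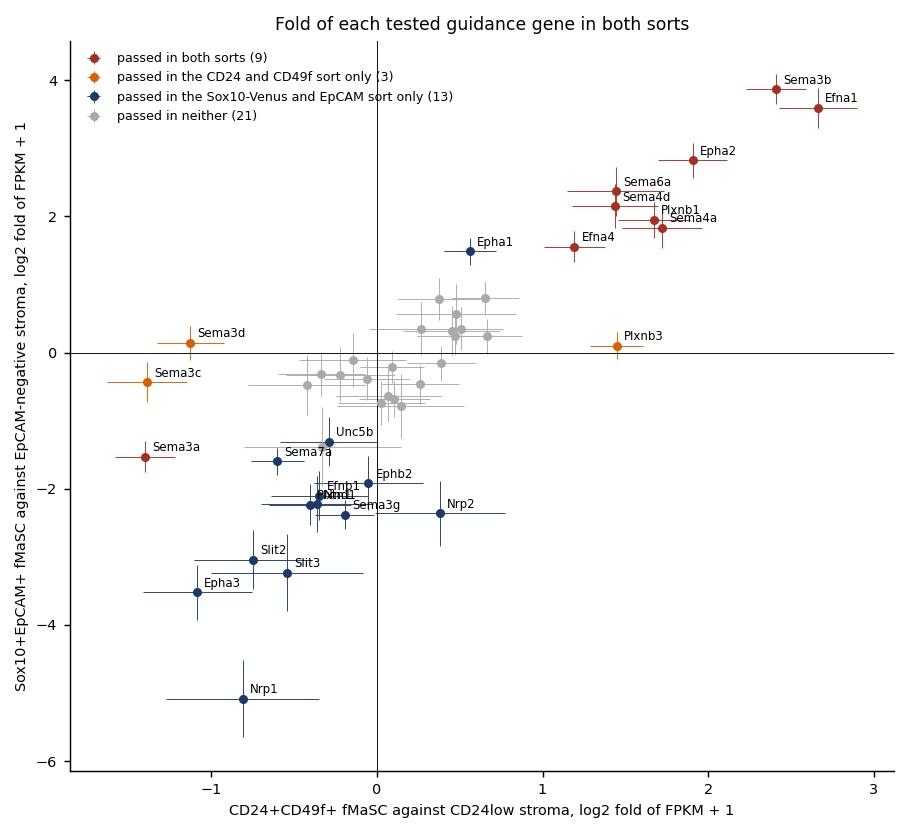
Log2 fold change (FPKM + 1) of the 46 tested guidance genes in the first sort (x axis) and the second (y axis), with bars of 1 SE, coloured by where the gene passed. The 8 genes higher in both sorts stand at the upper right, and of the genes that passed in the second sort only, Epha1 lies above 0 on the y axis and the others below it, down to Nrp1 at -5.09.

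The direct comparison of the epithelial fractions asked how the sorts differ in guidance genes. Of the 46 tested members, 11 were lower in Sox10+EpCAM+ than in CD24+CD49f+ fMaSC (23.9%, beside 8.04% of all genes) and 1, Sema3b, was higher (2.17%, beside 1.95%). The lower ones were Nrp1, Nrp2, Plxnd1, Sema3g, Sema7a, Slit3, Ntn1, Epha3, Efnb1, Ephb2 and Plxnb3. This comparison shares the Sox10+EpCAM+ libraries with that against EpCAM-negative stroma. Plxnb3 is a plexin gene known from oligodendrocytes. It measured 2.28 and 1.86 FPKM in CD24+CD49f+ fMaSC and 0.0681 to 0.239 in the other 5 libraries. Since it passed the filter only through the libraries where it is high, its calls are partly set by the filter and no p is given for it. The 11 lower members (23.9%) count Plxnb3. The other 10 were also lower in the second sort. Of the 10 glial and neural crest markers 6 were also lower in Sox10+EpCAM+ than in CD24+CD49f+ fMaSC (beside 8.04% of all genes), and none was called higher. Foxd3 stood at 9.29 and 12.5 FPKM in CD24+CD49f+ fMaSC and at 0.114 to 1.32 elsewhere. Sox10 went the other way, with 58 and 58.7 FPKM in CD24+CD49f+ fMaSC and 103 and 110 in Sox10+EpCAM+ fMaSC. The 10 markers of that list, Sox10 included, summed to 203 to 225 FPKM in CD24+CD49f+ fMaSC, 160 to 178 in Sox10+EpCAM+ fMaSC, 40 to 40.5 in CD24low stroma and 35.4 in the EpCAM-negative library, where Cdh19 was listed at 0. Markers of other cell types were lower in this comparison as well, with 10 of 10 fibroblast, 6 of 6 adipocyte, 7 of 9 endothelial and 3 of 4 neuronal markers tested. No leukocyte or mast cell marker was called, and 4 of 10 epithelial markers were higher. The 8 neuronal markers summed to 17.2 and 9.41 FPKM in CD24+CD49f+ fMaSC, 1.24 and 1.5 in Sox10+EpCAM+ fMaSC and 5.23 to 6.47 in stroma. The part of any of these cell types in the Plxnb3 result was not tested.

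Levels in CD24+CD49f+ fMaSC were then set against CD24low stroma, and those in Sox10+EpCAM+ fMaSC against the EpCAM-negative library. For Nrp1 the mean was 64.1% of the stroma level in the first sort and 1.03% in the second, for Slit3 69.8% and 2.73%, for Epha3 46% and 1.61%, and for Ntn1 81.4% and 11.9%. The summed fibroblast markers gave 38.6% and 0.934%. The remaining genes lower in the second sort lay further from that sum in the second sort than Nrp1, Slit3 and Epha3. They gave 147% and 8.31% (Nrp2), 50.1% and 5.53% (Slit2), 83.1% and 5.29% (Sema3g), and 72.6% and 11.9% (Plxnd1). Further values were 53.7% and 13.9% (Sema7a), 27.7% and 16.7% (Sema3a), 76.1% and 19.7% (Efnb1), 102% and 20.9% (Ephb2), and 75% and 31.2% (Unc5b). All 10 fibroblast markers were at 1 FPKM or more in every CD24+CD49f+ library and 8 of them in both Sox10+EpCAM+ libraries, and none was at 0. Between the CD24+CD49f+ libraries, replicate 2 held 1.56 times the fibroblast marker sum of replicate 1, and 2.96 times the Nrp1, 2.81 times the Slit3, 2.19 times the Epha3 and 2.19 times the Ntn1 level. For the other genes lower in the second sort the ratio was 2.53 for Nrp2, 2.12 for Ephb2, 1.61 for Slit2 and 1.53 for Plxnd1. It was 1.42 for Unc5b, 1.36 for Efnb1, 1.18 for Sema3g, 1.09 for Sema3a and 1 for Sema7a. Tested members that passed in neither sort ranged from 1.14 (Efnb2) to 3.14 (Sema5a). Summed FPKM over all genes was 752737 in replicate 1 and 424984 in replicate 2. The part of other cells in these levels was not tested. The calls between the fMaSC fractions rested on both Sox10+EpCAM+ libraries: without replicate 1 none of the 12 remained (for Nrp1 limma adjusted p = 0.0529), and without replicate 2 only Nrp1 did.

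**Figure D4:**
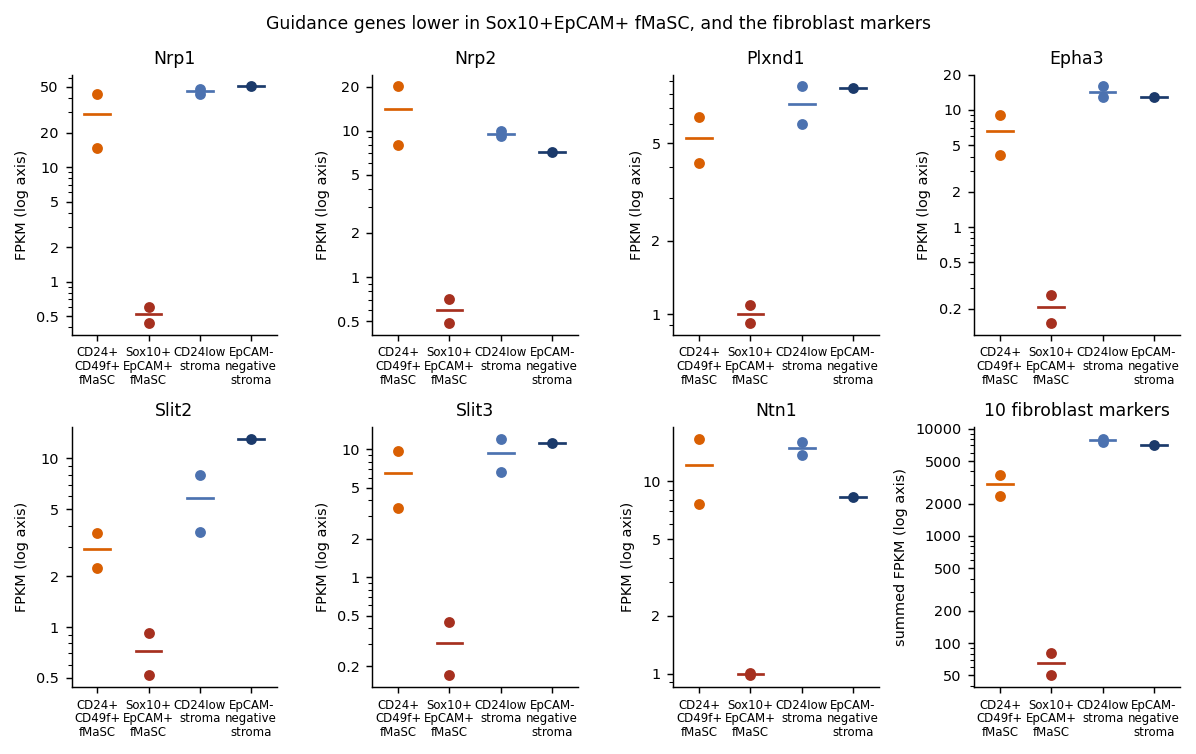
FPKM (log axis) of 7 genes lower in Sox10+EpCAM+ fMaSC, and the summed FPKM of the 10 fibroblast markers in the last panel, 1 point per library and a bar at the group mean (the EpCAM-negative group is 1 library). The Sox10+EpCAM+ points lie below all others in every panel, as they do for the fibroblast markers.

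Over both sorts, all fMaSC were compared with all stroma with the sort as a covariate. By that test 10 members were higher (21.7%, beside 15.6% of all genes), the 8 above with Epha1 (0.93, limma adjusted p = 0.0228) and Sema4g (0.71, limma adjusted p = 0.0221). Sema4g, another class 4 semaphorin, measured 2.14 to 3.28 FPKM in fMaSC and 0.911 to 1.52 in stroma. Lower were 4 members, Sema3a, Sema3c, Sema7a and Epha3 (8.7%, beside 9.5% of all genes), so this share lies near the background. Counting libraries alone, all 4 fMaSC libraries lay above all 3 stroma libraries in 12 members (26.1%, beside 23.3% of all genes) and below them in 5 (10.9%, beside 13.7%), both near the background. Without CD24+CD49f+ fMaSC replicate 2 the count of lower members was 14 of 45 tested (31.1%, beside 17.6% of all genes) in place of 4, and without CD24low stroma replicate 2 it was 7 of 46 (15.2%, beside 8.79%).

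Ligands and receptors were last set side by side in 28 known pairs, by their calls in either sort. Both partners were higher in fMaSC in 2 pairs, Sema4d with Plxnb1 and Efna1 with Epha2. Both were lower in fMaSC in 6 pairs, among them Sema3a, Sema3c and Sema3d with Nrp1, Efnb1 with Ephb2 and Ntn1 with Unc5b. Sema3c and Sema3d were lower in the first sort only, and Nrp1 and Nrp2 in the second only, so in Sema3c with Nrp1, Sema3c with Nrp2 and Sema3d with Nrp1 both partners were not lower in the same sort. In 7 pairs the ligand was lower and the receptor passed in neither sort, as for Slit2 and Slit3 with Robo1 and Robo2 and for Ntn1 with Neo1. No listed pair had a ligand called in one direction and a receptor called in the other, which depends on the choice of pairs. The list leaves out Sema3b with Nrp1 and with Nrp2. There the ligand was higher in fMaSC of both sorts and both neuropilin genes were lower in the second. The list also holds no pair of Sema4a or Efna4, which were higher in fMaSC of both sorts too, so the counts depend on these omissions. Many pairs share a gene, so they are not independent of each other.

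Other genes of the pathways were read from lists of related genes. Of 20 further family members 7 were tested, of which Ephb6 was higher over both sorts (1.65, limma adjusted p = 0.00379). That is 14.3% of those tested, near the 15.6% of all genes, and none was lower over both sorts. In the first sort 2 of the 7 were higher (28.6%, beside 7.78% of all genes) and none lower. In the second sort 1 was higher (14.3%, beside 12.5%) and 3 were lower (42.9%, beside 13.6%). The counts of the next list are again over both sorts. Of 49 co-factor and signalling genes 43 were tested, with 9 higher (20.9%, beside 15.6% of all genes) and 8 lower (18.6%, beside 9.5%). The higher ones include Dpysl5 (2.77, limma adjusted p = 0.000547), of the collapsin response mediator family that acts behind semaphorins, the adhesion gene L1cam (1.82), the adaptor gene Nck2 (1.49) and the Rac exchange factor gene Tiam1 (1.47). L1cam stood at 7.2 and 11.8 FPKM in CD24+CD49f+ fMaSC and at 0.617 and 1.63 in Sox10+EpCAM+ fMaSC. The lower ones include Mical2 (-1.59), of the oxidases that work behind plexins, Flrt2 (-1.41), Dpysl3 (-1.34) and Trio (-1.01). The median of this list was -0.06, where that of all genes was 0.12.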

How the data were processed

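Per the labels' protocols, RNA of sorted cells was made into TruSeq libraries and sequenced as 100-base paired ends. Per the submitters' processing notes, STAR and Cufflinks and the build GRCm38/mm10 were used, without versions. The authors deposited FPKM per gene entry and library, without counts, so depth could only be estimated from the lowest values (75.1% to 80.1% lay within 0.15 of a whole fragment) and no count test was run. The 8 added sequences were left out. Members were matched by symbol regardless of case.

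FPKM was transformed as log2(FPKM + 1), genes with 1 FPKM in at least 2 of 7 libraries (14418) were kept, and limma 3.58.1 in R 4.3.3 fitted 4 group means with an empirical Bayes trend (3 residual degrees of freedom, two-sided, Benjamini-Hochberg over all genes tested, threshold 0.05). The EpCAM-negative group is 1 library, so its spread is taken from the other groups. The pooled comparison fitted cell type plus sort. The fit was tested on simulated data. The members, gene lists, pairs and tests were chosen with earlier results of these data known. Members called in a comparison with 5 FPKM in a group mean, or at 20 FPKM, were named with every library, and each pathway list gave at most 4 called genes a direction, by their pooled change. Some members outside this rule (Sema3g, Sema7a, Sema4g, Plxnb3, Epha1) were named for their calls. Alternatives were other pseudocounts and filters, TPM, TMM and quantile scaling, no variance trend and leaving out each library. Promoters were matched by symbol to RefSeq (45 of 52), where the starts given for Sema4d and Plxnb2 lie 37064 and 2831 bases from those of the table. Tables and figures used matplotlib 3.10.9, numpy 2.4.6 and pandas 2.3.3 under Python 3.11.15.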

Additional observations from a re-analysis of the deposited data

Results flagged for a closer look

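The fMaSC-stroma fold of Sema3g differed between the sorts by -2.19 on the log2 scale (limma adjusted p = 0.0313), with a fold of -0.19 in the CD24 and CD49f sort and -2.38 in the Sox10-Venus and EpCAM sort. It stood out because the test of the difference itself passed, and it was the 1 member that did. The call was lost with no filter on low values, under TPM and under quantile scaling. Leaving out any 1 library of Sox10+EpCAM+ fMaSC or of CD24low stroma lost it too. Sema3g was not tested under the filter of 5 FPKM. The second sort's stroma is 1 library, at 5.8 FPKM.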

How the results depend on the processing

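No paired analysis was possible because the labels carry no replicate numbers, those used here being names given in the order of the series. No called fold of a member changed sign under any setting. The member counts below stand beside calls over all 14418 genes tested, which moved too. In the first sort 10.7% of all genes passed (1545), and 556 under TPM. In the second 26.1% passed (3762), and 2213 under TPM. Over both sorts 25.1% passed (3621), and 1604 under TPM. Between the fMaSC fractions 9.99% passed (1440), 531 under TPM. For the difference 1.51% passed (218), 59 under TPM. Leaving out 1 library moved these counts too. For CD24+CD49f+ fMaSC against CD24low stroma 12 members passed, 3 under scaling to equal sums (TPM), and 5 to 15 when 1 library was left out. In the Sox10-Venus and EpCAM sort 22 passed, and between 16 and 25 with 1 library left out. The EpCAM-negative library itself could not be left out there or in the difference between sorts. Over both sorts 14 passed, 9 under TPM and 9 to 24 with 1 library left out. Between the fMaSC fractions 12 passed, 3 with no filter, 5 under TPM and 0 to 13 with 1 library left out. For the difference between the sorts 1 passed, 2 with a pseudocount of 0.5, 3 with 0.1, 0 with no filter, 0 with a filter of 5 FPKM, 0 under TPM, 0 under quantile scaling and 0 to 10 with 1 library left out. TPM moved the median log2 fold of all genes to -0.12 in the first sort, -0.63 in the second, -0.32 over both, -0.23 between fMaSC fractions and -0.51 for the difference, and relative to these medians the folds of Efna4 and Epha2 in the second sort were 1.62 and 2.96. Among all genes, the share of calls that were higher was 72.6% in the first sort (61.6% under TMM, 52.6% under quantile scaling), 47.9% in the second (26.8% under TPM), 62.2% over both (49.4%, 49.6% and 44.7% under TPM, TMM and quantile scaling) and 19.5% between fMaSC fractions (2.4% under TPM, 39.2% under quantile scaling, 7.5% with a pseudocount of 0.1). The cause of these shifts was not tested. The calls of Efna1 and Sema3b in both sorts, and of Epha2, Nrp1, Plxnd1, Epha3, Slit2 and Sema3a in the second sort, passed under every setting and every leave-out run, whereas Efna4, Epha1, Plxnb1, Sema4a, Sema4d and Sema6a did not pass in the second sort under TPM. In the first sort Sema4d and Sema6a were lost without either Sox10+EpCAM+ library and without CD24low stroma replicate 2. Nrp2, Ephb2, Ntn1 and Unc5b were lost in the second sort without either Sox10+EpCAM+ library. Depth was only estimated, and 1 or 2 libraries a group limit the precision.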
